A study of Homo sapiens with 8 samples.

Results

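TBRG1 and 8 genes of the p53 pathway were followed in Argonaute 2 (Ago2) precipitates and in total RNA of a Hodgkin lymphoma cell line with and without a miR-155 sponge. Members were all probes whose annotated transcript maps to TBRG1, MDM2, MDM4, CDKN1A, CDKN2A, TP53BP1, TP53BP2, PPM1D or SESN1, which gave 14 probes for 9 of the 16557 genes named on the array. Of these 14 probes, 12 passed the filters and are called kept, and each of the 9 genes had at least 1 kept probe. The 2 probes that failed, 1 of TBRG1 and 1 of SESN1, are described with their detection.

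L1236, an established Hodgkin lymphoma cell line, carried either the pMSCV-PIG retroviral vector with no insert (EV cells) or the same vector with a miR-155 sponge (sponge cells). In both populations the GFP-positive cells had been sorted. Total RNA (T) and RNA recovered with an anti-Ago2 antibody (IP) were labelled with either dye, Cy3 or Cy5, and IP and T of a population shared an array, so that 4 two-colour Agilent arrays gave 8 channels. Each of the 4 groups (EV T, EV IP, sponge T, sponge IP) holds 1 RNA sample, so no change was tested and no p-value is given. The comparison is limited to 1 cell line and to 1 sorted population for each vector. Because bulk RNA was measured, fewer cells with a transcript and less of it per cell cannot be told apart.

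The p53 protein is a transcription factor that stops the cell cycle or triggers cell death after damage. MDM2 and MDM4 hold it in check, ARF from the CDKN2A locus blocks MDM2, and genes such as CDKN1A, SESN1, PPM1D and MDM2 itself are switched on by p53. NIAM, the protein made from TBRG1, was named for binding ARF and MDM2 and can restrain growth. A microRNA guides Ago2 to transcripts that pair with its seed, so a transcript held by loaded Ago2 is over-represented in the IP, and a sponge offers decoy sites for the microRNA. The mature sequence is printed because its seed defines the sites that the sponge competes for. It is given 5′ to 3′ from RefSeq, with bases 2 to 8, the seed, in capitals, and lies on the plus strand at chr21:25573983-25574006 of GRCh38.p14.

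hsa-miR-155-5p: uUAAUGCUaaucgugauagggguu

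A transcript that pairs with the whole seed and has an A opposite base 1 reads AGCAUUAA, and GCAUUA is the shorter match to bases 2 to 7. Transcript sequences were not searched here.

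The cell line's identity was checked in the 4 T channels, at each gene's probe with the most of them well above background. All 7 Hodgkin markers, among them TNFRSF8 (CD30), CCL17 and the miR-155 host gene MIR155HG, were well above background in all 4. Of 4 B-cell genes, 3 were detected in all 4 and MS4A1 (CD20) in 0. Of 5 genes of other cell types, CD3D, LYZ and EPCAM were detected in 0 channels, and CD3E and CD14 in all 4. The share of spots well above background was 54.1% in sponge T labelled with Cy5 and between 61.0% and 65.7% in the other channels.

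Signals are log2 values after quantile normalisation. IP/T is the IP over the T signal of a population, given as log2 for the orientation with IP in Cy5 and T in Cy3 first and the reverse orientation second. A difference between sponge and EV cells is given for Cy3 first and Cy5 second, and it was counted where both dyes passed 0.32 on the log2 scale (the threshold) in the same direction. Errors are SDs over these 2 values. They cover labelling and hybridisation only.

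The probes of TBRG1 itself gave different IP/T values. The study assigned A_23_P98463 to NIAM, the protein-coding transcript that carries the miR-155 site, and described the array's other TBRG1 probe as one that also reads a non-coding transcript without the site. By elimination that other probe is A_24_P21752. Both have the same annotated transcript, NM_032811.

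A_23_P98463 had log2 signals of 6.42 (Cy3) and 5.33 (Cy5) in EV T, 9.34 and 9.55 in EV IP, 5.94 and 4.78 in sponge T, and 9.29 and 9.11 in sponge IP. All 4 IP values lay above all 4 T values. The probe was well above background in 6 of 8 channels, and the T channels labelled with Cy5 were the ones that missed it. Its Cy3 and Cy5 values differed by up to 1.16 in T, more than the 2-fold limit, so it was not among the kept probes.

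With the T channels that did detect it, log2 IP/T of the NIAM probe was 3.13 for EV and 3.18 for sponge cells. The reverse orientation, which rests on T signals not well above background, gave 4.01 and 4.51. The means over both orientations, 3.57 ± 0.62 (SD) in EV and 3.85 ± 0.95 in sponge cells, therefore include undetected T signals. With normexp background correction, which adds an offset of 50 to each signal and so compresses ratios of dim spots, the means were 1.09 or 1.00 in EV and 0.69 or 0.89 in sponge cells, with loess and Aquantile or with quantile normalisation after it.

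A_24_P21752 was well above background in all 8 channels, with log2 signals of 9.50 and 9.61 in EV T, 9.55 and 9.64 in EV IP, 9.73 and 9.57 in sponge T, and 9.74 and 10.04 in sponge IP. Here T and IP lay side by side in EV cells, with overlapping values. Its log2 IP/T was 0.13 and -0.061 in EV and 0.32 and 0.17 in sponge cells. Of kept probes, 57.1% had a lower IP/T in EV cells. Transcripts read by this probe were thus not enriched in the IP of EV cells beyond the spread of the dyes.

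IP/T of the NIAM probe exceeded that of the other TBRG1 probe by 3.53 ± 0.76 on the log2 scale in EV and by 3.60 ± 1.05 in sponge cells. Both orientations gave this direction in both populations, with 3.00 and 4.07 in EV and 2.86 and 4.34 in sponge cells. The first value of each pair rests on T channels that detected both probes. The size depended on how the dim T signal was treated, since with normexp the difference was 1.01 or 0.99 in EV and 0.62 or 0.81 in sponge cells.

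**Figure D1:**
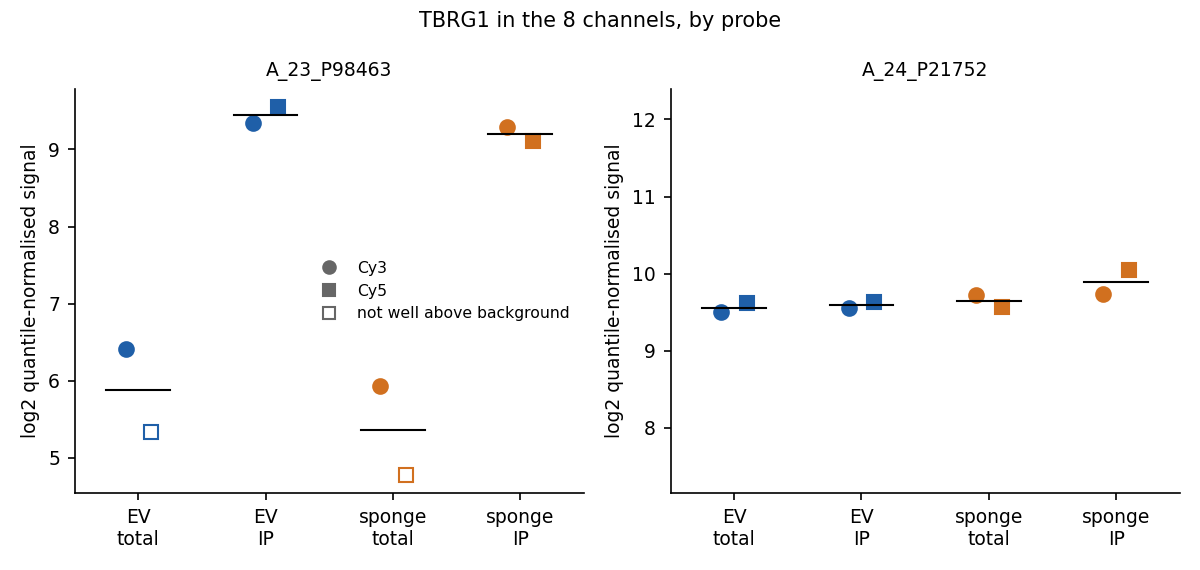
TBRG1 by probe: log2 quantile-normalised signal (y axis) in total RNA and Ago2-IP of EV cells (blue) and sponge cells (orange), with Cy3 as circles, Cy5 as squares, open symbols for channels not well above background and black bars for the mean of the dyes. For A_23_P98463 the 4 IP values (9.11 to 9.55) lie above the 4 T values (4.78 to 6.42), while the values of A_24_P21752 stay between 9.50 and 10.04. Both panels span the same number of log2 units.

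Between the populations, the NIAM probe had log2 differences (sponge minus EV) of -0.48 and -0.55 in T and of -0.045 and -0.43 in IP. The IP difference was mostly in one dye. The T difference, with a mean of -0.52 ± 0.05, depended on the treatment of the dim signal. Scaling to the 75th percentile gave -0.38. Normexp, whose offset compresses dim ratios by construction, gave 0.10 or 0.016, so it cannot show whether the difference is absent. The Cy5 part of the T difference compares signals not well above background. The probe's IP/T difference of 0.28 ± 0.32 became -0.40 or -0.11 with normexp, so its direction depended on the background correction.

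The other TBRG1 probe differed in T by 0.22 and -0.047 and in IP by 0.18 and 0.41. Only the Cy5 difference in IP passed the threshold. The sponge minus EV difference of its IP/T was 0.21 ± 0.031 over the orientations, and by dye it was -0.037 with Cy3 and 0.46 with Cy5. With normexp it was -0.0095 or 0.066, so no direction held over the settings.

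Among kept probes with a gene symbol, the 3 whose pattern over the 4 RNA samples lay nearest to that of the NIAM probe were those of CDC37L1, GCNT2 and CLIP4, at Euclidean distances of 0.16, 0.17 and 0.18 (log2 signal, mean of dyes, centred on the probe). CDC37L1, well above background in all 8 channels, showed a log2 IP/T of 3.50 ± 0.21 in EV and 3.75 ± 0.23 in sponge cells. GCNT2 was detected in 5 channels and CLIP4 in 7. The mean T signals of the NIAM probe include undetected Cy5 channels and its dyes differed by up to 1.16, far more than these distances, so their order is a description of the means only. The other TBRG1 probe lay nearest to PLCL2, COX11 and KIFC1, at 0.035, 0.037 and 0.046. Their IP/T in EV cells was close to 0 as well, from -0.022 to 0.037.

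Across the 12 kept member probes, 6 had an IP/T of 2 or more in EV and 6 in sponge cells, against a background of 17.5% of all 22477 kept probes in EV and 17.5% in sponge cells. In each population those 6 probes covered 4 genes, MDM2, MDM4, CDKN1A and SESN1. An IP/T of 0.5 or less was found for 1 member probe, that of TP53BP1, in EV cells and in sponge cells, where the backgrounds were 19.0% and 17.8%. With normexp TP53BP1 no longer reached 0.5, at a log2 IP/T of -0.95 or -0.94 in EV and -0.91 or -0.88 in sponge cells. All 14 member probes then passed the dye filter, 4 or 2 of them reached an IP/T of 2 in EV and 1 or 2 in sponge cells, and CDKN1A A_23_P59210 was among them in each case.

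**Figure D2:**
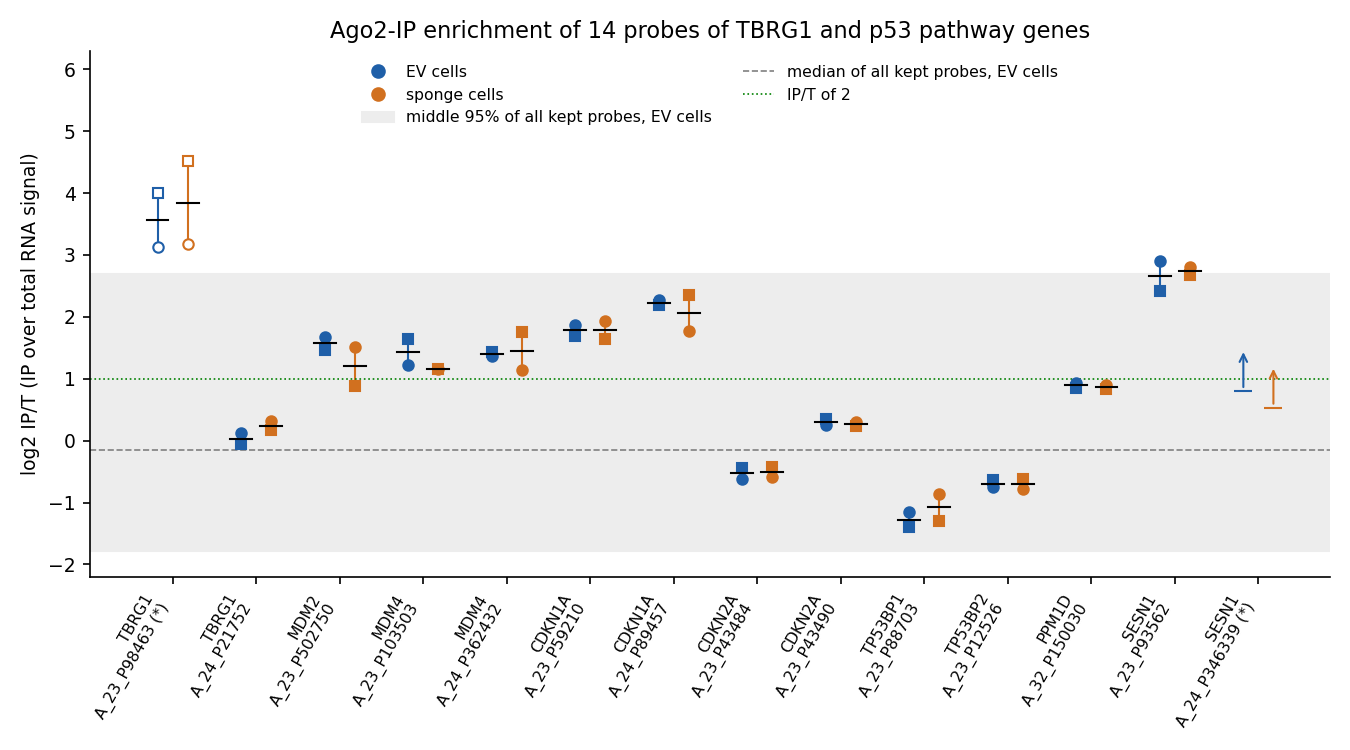
Log2 IP/T (y axis) of each member probe in EV cells (blue) and sponge cells (orange), with circles for IP in Cy5 and T in Cy3, squares for the reverse and black bars for means. Open symbols and (*) mark the 2 probes that were not kept, and arrows start at the lower bounds of the SESN1 probe with no T channel well above background. The means of MDM2, MDM4, CDKN1A and the kept SESN1 probe lie above the dotted line at an IP/T of 2, and TP53BP1, TP53BP2 and 1 probe of CDKN2A lie below the median of all kept probes (-0.16).

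MDM2, the ubiquitin ligase that marks p53 and also NIAM for degradation, was dim in T. A_23_P502750, which has 10 spots on each array, had log2 signals of 5.86 and 6.04 in EV T, 7.51 and 7.54 in EV IP, 5.88 and 6.38 in sponge T, and 7.26 and 7.40 in sponge IP. IP and T did not overlap in either population. In T only 5 and 7 of 10 spots were well above background in EV and 8 and 2 of 10 in sponge cells, against 10 of 10 in each IP channel. The SD between its spots ranged from 0.055 to 0.39 on the log2 scale.

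The log2 IP/T of MDM2 was 1.68 and 1.47 in EV (2.98-fold) and 1.52 and 0.88 in sponge cells (2.30-fold). The IP/T difference between the populations was -0.37 ± 0.30, with -0.16 and -0.59 in the 2 orientations, and 4.66% of kept probes had a lower value. T differed by 0.021 and 0.34 and IP by -0.25 and -0.14. With normexp MDM2 was hardly enriched, at 0.29 or 0.27 in EV and 0.12 or 0.18 in sponge cells. Neither T nor IP passed the threshold with both dyes, and the Cy5 value in sponge T rests on 2 spots well above background.

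MDM4, which binds p53 and blocks its activity as a transcription factor, was read by 2 probes well above background in all channels. A_23_P103503 had log2 signals of 9.83 and 9.52 in EV T, 11.16 and 11.04 in EV IP, 9.80 and 9.80 in sponge T, and 10.95 and 10.97 in sponge IP. A_24_P362432 had 8.75 and 8.77 in EV T, 10.20 and 10.11 in EV IP, 8.91 and 8.22 in sponge T, and 9.98 and 10.06 in sponge IP. With both probes every IP value lay above every T value.

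Both MDM4 probes gave nearly the same enrichment in EV cells, with a mean log2 IP/T of 1.43 ± 0.30 and 1.40 ± 0.047 and a difference between probes of 0.026 ± 0.25. In sponge cells the means were 1.16 ± 0.0058 and 1.45 ± 0.44. With normexp A_23_P103503 was at 1.09 or 0.94 in EV and at 0.71 or 0.73 in sponge cells. A_24_P362432 was then at 0.88 or 0.75 in EV and at 0.65 or 0.70 in sponge cells. Of these values only the 1.09 reached an IP/T of 2. In IP both probes were slightly lower in sponge cells with both dyes, with differences of -0.21 and -0.074 and of -0.22 and -0.056. In T the probes went in opposite directions on average, by 0.13 ± 0.21 and -0.19 ± 0.50, and for A_24_P362432 the dyes themselves disagreed, with 0.17 and -0.55.

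CDKN1A encodes p21, the cyclin-dependent kinase inhibitor by which p53 halts the cell cycle. It was higher in sponge cells than in EV cells in T and in IP with both of its probes and both dyes. A_23_P59210, which is annotated to NM_000389 and has 10 spots an array, had log2 signals of 11.97 and 12.12 in EV T, 13.81 and 13.84 in EV IP, 12.40 and 12.71 in sponge T, and 14.35 and 14.34 in sponge IP. The lowest sponge value exceeded the highest EV value in each fraction. The SD between its spots was 0.048 to 0.069.

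Sponge T was higher than EV T for A_23_P59210 by 0.43 and 0.60, a mean of 0.52 ± 0.12 or 1.43-fold, and sponge IP was higher by 0.54 and 0.49, a mean of 0.52 ± 0.033 or 1.43-fold. Of kept probes, 97.9% had a lower difference in T and 98.6% in IP. Log2 IP/T was 1.78 ± 0.13 in EV and 1.78 ± 0.21 in sponge cells, a difference of 0.0016 ± 0.083. T and IP were thus higher by the same amount, and the enrichment differed by less than the spread of the orientations. Cy3 alone, which leaves out the Cy5 channel of sponge T with its fewer detected spots, gave the 0.43. With normexp the difference was 0.46 or 0.47 in T and 0.56 or 0.52 in IP, before loess and Aquantile or before quantile normalisation. Scaling to the 75th percentile gave 0.53 in T and 0.55 in IP. Single dyes and single orientations only repeat the dye values above.

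A_24_P89457, annotated to the CDKN1A transcript NM_078467, had log2 signals of 7.04 and 7.15 in EV T, 9.34 and 9.31 in EV IP, 8.01 and 7.72 in sponge T, and 10.08 and 9.77 in sponge IP. Again sponge and EV values did not overlap in either fraction. The difference was 0.97 and 0.57 in T (1.71-fold) and 0.74 and 0.47 in IP (1.52-fold). IP/T was 2.23 ± 0.058 in EV and 2.06 ± 0.42 in sponge cells, and with normexp it was under an IP/T of 2, at 0.78 or 0.73 in EV and 0.76 or 0.85 in sponge cells. With normexp its difference was still above 0 and no longer past the threshold with both dyes, with means of 0.25 or 0.23 in T and 0.22 or 0.35 in IP.

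**Figure D3:**
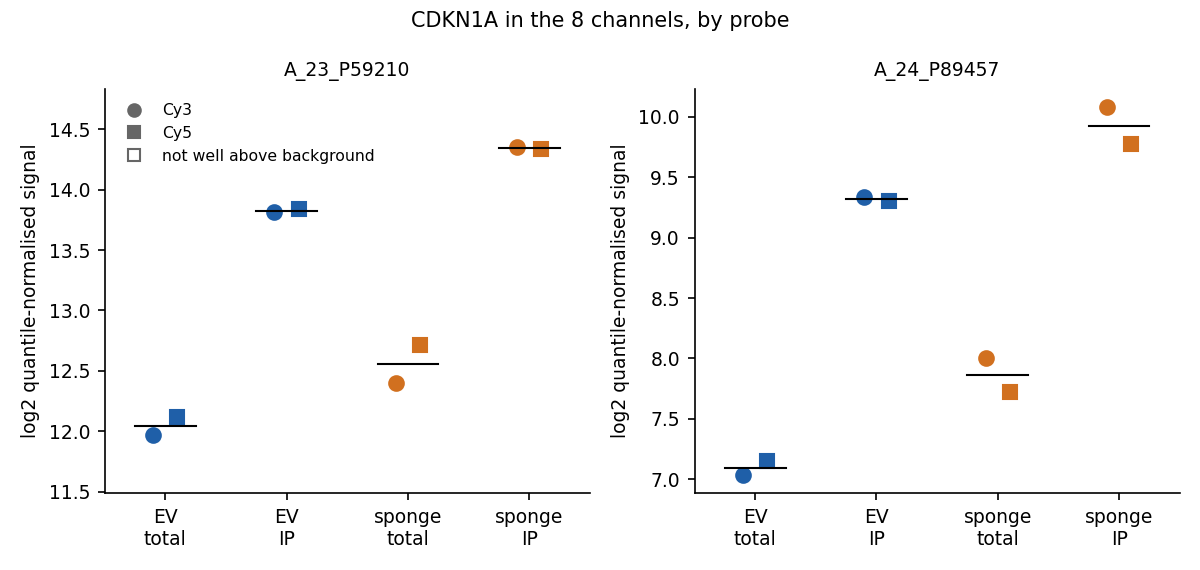
CDKN1A by probe: log2 quantile-normalised signal (y axis) in total RNA and Ago2-IP of EV cells (blue) and sponge cells (orange), with Cy3 as circles, Cy5 as squares and black bars for the mean of the dyes. In both panels the sponge values lie above the EV values of the same fraction, for A_23_P59210 at 12.40 and 12.71 against 11.97 and 12.12 in T. All 16 channel values were well above background.

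The CDKN1A probes were the only member probes past the threshold in the same direction with both dyes among the 12 kept. In T 2 of 12 were higher and 0 lower, against backgrounds of 2.91% higher and 3.1% lower over all kept probes. In IP 2 of 12 were higher and 0 lower, against 3.07% and 2.9%. Being higher in T and in IP together held for the same 2 probes, against 0.828% of kept probes (186). No kept member probe differed 2-fold, against 0.409% of kept probes in T and 0.151% in IP. The 2 probes of CDKN1A read 1 gene, and their transcripts share exons, so they are not independent.

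**Figure D4:**
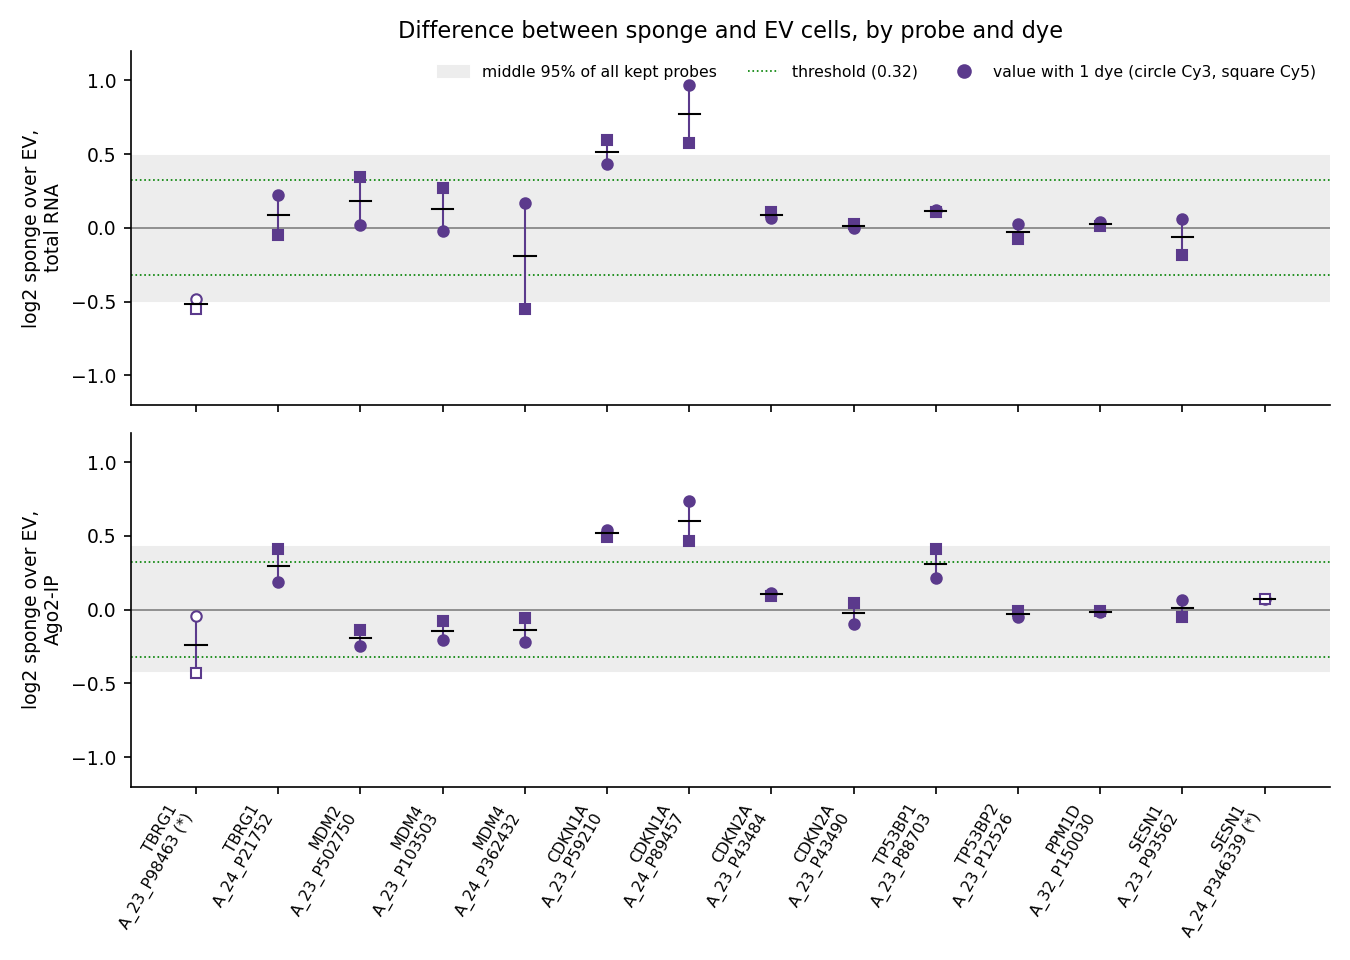
Difference between sponge and EV cells (log2, y axis) of each member probe in total RNA (upper panel) and Ago2-IP (lower panel), with circles for Cy3, squares for Cy5 and black bars for means. Among kept probes only those of CDKN1A have both values past the dotted threshold lines (0.32), and most other members lie within the grey band that holds the middle 95% of kept probes (-0.50 to 0.49 in T). Open symbols and (*) mark probes that were not kept, and no T difference is drawn for the SESN1 probe whose T channels were not well above background.

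CDKN2A, whose locus encodes the MDM2 inhibitor ARF and the kinase inhibitor p16, gave strong signals and did not follow CDKN1A. Both of its probes are annotated to NM_058197. A_23_P43484, with 10 spots an array and an SD between spots of 0.023 to 0.075, had log2 signals of 13.67 and 13.59 in EV T, 13.15 and 13.05 in EV IP, 13.73 and 13.69 in sponge T, and 13.27 and 13.14 in sponge IP. A_23_P43490 had 15.18 and 15.22 in EV T, 15.57 and 15.43 in EV IP, 15.18 and 15.25 in sponge T, and 15.48 and 15.48 in sponge IP. With the first probe T lay above IP in every pair, and with the second IP lay above T.

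These opposite directions repeated in both populations. IP/T was -0.53 ± 0.13 in EV and -0.51 ± 0.12 in sponge cells with A_23_P43484, and 0.30 ± 0.071 and 0.26 ± 0.05 with A_23_P43490. The probes differed by 0.83 ± 0.06 in EV and 0.77 ± 0.17 in sponge cells, which exceeds the spread of the orientations. Between the populations neither probe differed by more than 0.12 in either fraction and dye.

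TP53BP1, a scaffold protein of the DNA double-strand break response, had the lowest IP/T of the members, also with normexp. A_23_P88703 had log2 signals of 11.52 and 11.70 in EV T, 10.30 and 10.38 in EV IP, 11.64 and 11.80 in sponge T, and 10.51 and 10.79 in sponge IP. IP lay below T throughout, with a log2 IP/T of -1.15 and -1.40 in EV (0.414-fold) and -0.86 and -1.29 in sponge cells (0.475-fold). In IP it was higher in sponge cells by 0.22 and 0.41, which passed the threshold with Cy5 only, and T differed by 0.12 and 0.11.

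TP53BP2 encodes ASPP2, a p53-binding protein that favours the induction of cell death genes. Its log2 signals (A_23_P12526) were 11.00 and 10.88 in EV T, 10.24 and 10.25 in EV IP, 11.03 and 10.80 in sponge T, and 10.19 and 10.24 in sponge IP. IP lay below T in both populations by nearly the same amount, with an IP/T of -0.69 ± 0.076 in EV and -0.70 ± 0.12 in sponge cells. The populations differed by -0.025 ± 0.075 in T and -0.03 ± 0.03 in IP.

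PPM1D, the p53-induced phosphatase WIP1 that switches the damage response off again, gave nearly the same values in both populations. A_32_P150030 had log2 signals of 9.02 and 9.01 in EV T, 9.86 and 9.95 in EV IP, 9.06 and 9.02 in sponge T, and 9.85 and 9.95 in sponge IP. IP lay above T with a log2 IP/T of 0.90 ± 0.059 in EV (1.86-fold) and 0.86 ± 0.046 in sponge cells (1.81-fold), just under an IP/T of 2. The populations differed by 0.024 ± 0.02 in T and -0.012 ± 0.0066 in IP.

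SESN1, the p53 target sestrin 1 that dampens growth signalling under stress, had the highest IP/T of the kept members before normexp correction. A_23_P93562 had log2 signals of 6.79 and 7.22 in EV T, 9.65 and 9.70 in EV IP, 6.85 and 7.04 in sponge T, and 9.72 and 9.65 in sponge IP. The fractions were far apart, with a log2 IP/T of 2.91 and 2.42 in EV (6.34-fold) and 2.80 and 2.68 in sponge cells (6.67-fold), and 97.4% of kept probes had a lower IP/T in EV cells. The populations differed by 0.059 and -0.18 in T and by 0.068 and -0.048 in IP. With normexp the IP/T was 1.01 or 0.95 in EV and 0.83 or 1.01 in sponge cells, below that of CDKN1A A_23_P59210 at 1.76 or 1.70 and 1.86 or 1.75.

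The other SESN1 probe, A_24_P346339, was not well above background in any of the 4 T channels and failed the dye filter. In IP its log2 signals were 8.84 and 8.77 in EV and 8.91 and 8.84 in sponge cells. After normexp with loess and Aquantile, and with T set in each channel to the higher of the lowest signal well above background and the signal of the probe (here its own in all 4), IP was at least 1.74-fold T in EV and at least 1.44-fold in sponge cells. This bound depends on the normalisation, and normexp with quantile normalisation put the EV ratio at 0.78 on the log2 scale in place of 0.80. IP differed between the populations by 0.069 and 0.072. No difference in T is given, because neither population had a measured T signal.

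Other genes of the pathway were read once each, at their brightest kept probe. The shares over all kept probes count every probe, also several of the same gene and those without a gene name. Of 38 other p53 target genes 32 had a kept probe, and 10 of them had an IP/T of 2 or more in EV (31.25%) and 12 in sponge cells, beside 17.5% and 17.5% of all kept probes. An IP/T of 0.5 or less was found for 6 and 5 of them, beside 19.0% and 17.8%. The list's median log2 IP/T was 0.47 in EV and 0.65 in sponge cells, beside -0.16 and -0.13 over all kept probes. Medians of the single orientations were 0.48 and 0.65 in EV and 0.48 and 0.68 in sponge cells. Over 12 alternative settings the list's median ranged from 0.24 to 0.65 in EV and from 0.29 to 0.77 in sponge cells. The counts of the list were not repeated under these settings. The highest in EV cells were BTG2, an antiproliferative cofactor, at 5.00 ± 0.064, and PMAIP1, the cell death protein NOXA, at 3.15 ± 0.15. DRAM1, a lysosomal regulator of autophagy, followed at 2.53 ± 0.011. DRAM1 was dim in T, with log2 signals of 7.13 to 7.37, and its IP/T with normexp was not examined. The lowest were BBC3, the cell death protein PUMA, at -2.44 ± 0.27, SFN, 14-3-3 sigma, at -1.79 ± 0.42, and XPC, a DNA damage sensor, at -1.30 ± 0.0095. The BBC3 probe had log2 T signals of 17.70 to 18.08, beside 17.44 to 17.82 for the ribosomal protein gene RPL5. Whether it reads BBC3 alone was not tested.

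Between the populations, 2 of the 32 targets were higher in sponge T and 1 was lower past the threshold with both dyes, beside 2.91% and 3.1% of all kept probes. GDF15, a stress cytokine, was higher by 0.47 ± 0.10. TP53I3, a quinone oxidoreductase, was higher by 0.49 ± 0.14, with only 1 of its 4 T channels well above background. ZMAT3, an RNA-binding zinc finger protein, was lower in sponge T, with a difference of -0.65 ± 0.079, and its IP/T was 1.03 ± 0.15 in EV and 1.53 ± 0.15 in sponge cells. In sponge IP 0 of the 32 were past the threshold in either direction, beside 3.07% higher and 2.9% lower over all kept probes. None of the 32 was therefore past the threshold in T and IP together, as CDKN1A was, and the list's median difference was -0.010 in T and -0.0079 in IP, beside -0.015 and 0.0062 over all kept probes.

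Of 24 regulators of p53 22 had a kept probe, and 4 had an IP/T of 2 or more in each population (18.2% in EV cells), close to the 17.5% of all kept probes. An IP/T of 0.5 or less was found for 2 in EV and 3 in sponge cells, beside 19.0% and 17.8%. The list's median log2 IP/T was -0.23 in EV and -0.12 in sponge cells. Medians of the single orientations were -0.27 and -0.18 in EV and -0.22 and -0.10 in sponge cells. Over 12 alternative settings the list's median ranged from -0.27 to -0.0079 in EV and from -0.24 to 0.018 in sponge cells. DMTF1, a transcription factor that activates the ARF promoter, had the highest IP/T at 3.86 ± 0.099 in EV cells, followed by the p53 ubiquitin ligases COP1 at 1.67 ± 0.34 and RCHY1 at 1.47 ± 0.11. The lowest were the acetyltransferase KAT5 at -1.44 ± 0.12, the ubiquitin ligase HUWE1 at -1.41 ± 0.079 and DAXX, a histone chaperone that binds MDM2, at -0.98 ± 0.07.

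No regulator was past the threshold in T with both dyes. In IP 0 were higher and 2 were lower in sponge cells, beside 3.07% and 2.9% of all kept probes. The IP difference of DMTF1 was -0.37 ± 0.033 and its T difference -0.052 ± 0.011, and its IP/T was 3.54 ± 0.14 in sponge cells. HIPK2, a kinase that phosphorylates p53, had an IP difference of -0.41 ± 0.029, and its T differed by 0.14 ± 0.15.

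**Figure D5:**
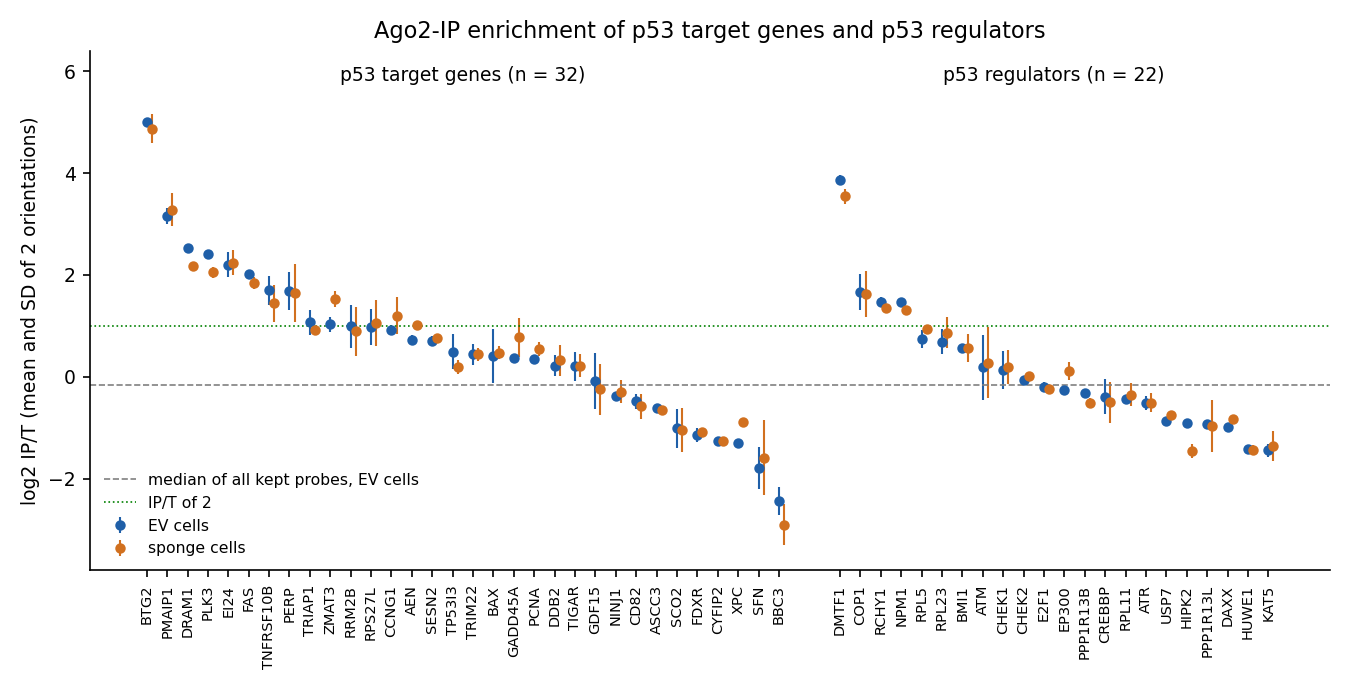
Log2 IP/T (y axis, mean and SD of 2 orientations) of 32 p53 target genes and 22 p53 regulators in EV cells (blue) and sponge cells (orange), each at its brightest kept probe and ordered by EV cells. BTG2 (5.00), PMAIP1 (3.15) and DMTF1 (3.86) stand above the rest, and BBC3 (-2.44) is lowest. The dashed line is the median of all kept probes in EV cells.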

How the data were processed

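Per the file headers, the authors extracted the deposited spot intensity values with Agilent Feature Extraction (10.7.3.1 in the headers, 10.5.1.1 in the submitters' processing notes; array annotation on hg18), which subtracts background and corrects for dye. A further deposited table of log2 values, normalised by the authors, lists 22282 probes, among them all members except the 2 not kept, and served as an alternative. The 4 arrays lie on 1 slide from 1 scan.

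Here, the processed signals of each probe's spots (without control and outlier-flagged spots) were averaged, log2 transformed and quantile normalised over the 8 channels (R 4.3.3, limma 3.58.1). Of 41000 probes, 60 lacked a value in at least 1 channel. A probe with at least 1 spot well above background in at least 4 channels (25837 probes) and Cy3 and Cy5 within 2-fold in each RNA sample was kept (22477). No spot was saturated. Probes were named through RefSeq transcripts (GRCh38.p14 table, names only), which named 69.5% of kept probes. A difference between populations was counted where both dyes passed 0.32 (log2) in the same direction, and IP/T was counted on its mean. The number of arrays limits the precision.

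Alternatives were normexp correction (offset 50, on median and local background median signals) before loess and Aquantile or before quantile normalisation, scaling to the 75th percentile, the authors' values, other detection and dye filters, and single dyes or orientations. Lower bounds ("at least N-fold") were taken after normexp, loess and Aquantile, with an undetected channel set to the higher of the lowest signal well above background and the signal of the probe. Calculations were tested on simulated data. Named were all member probes, from each list the 3 highest and 3 lowest IP/T in EV cells and every gene counted as different, and the 3 probes nearest to each TBRG1 probe. Members, lists (written from general knowledge) and rules were chosen with earlier results of these data known. One gene of the target list is not reported here.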

Additional observations from a re-analysis of the deposited data

How the results depend on the processing

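Normexp with its offset of 50, which compresses dim ratios by construction, let all 14 member probes pass the filters. Followed by quantile normalisation, 2 of 14 had an IP/T of 2 or more in EV cells, where 6 of 12 were reported. These were CDKN1A A_23_P59210, which was among the reported 6, and the NIAM probe, which was not. There were 2 in sponge cells, and with loess and Aquantile 1 in sponge cells. With either, 1 member probe, the bright one of CDKN1A, was past the threshold of 0.32 in T and 1 in IP, where 2 were reported. The TBRG1 probe difference in IP/T was then 1.01 (loess and Aquantile) or 0.99 (quantile) in EV cells and 0.62 or 0.81 in sponge cells. The T difference of the NIAM probe turned to 0.10 or 0.016. For SESN1 A_24_P346339, whose T was not well above background, the T difference turned to 0.089 or 0.014 and the IP/T difference to -0.27 or -0.0063.

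Without the dye filter 4 member probes were past the threshold of 0.32 in T, the added ones being the NIAM probe and SESN1 A_24_P346339. The NIAM probe was lower, and its Cy5 part compares T signals not well above background. For the SESN1 probe that holds in all 4 T channels, so no direction is given. With the arrays that carried IP in Cy3 there were 4 in T, and with those that carried IP in Cy5 there were 4 in IP. A single dye is then read in each fraction, so the rule is looser than the reported one for both dyes. The arrays with IP in Cy3 left 5 probes with an IP/T of 2 or more in sponge cells. Leaving out a dye gave 2 to 4 in T and 2 to 4 in IP, again by the looser rule, and it left 6 probes with an IP/T of 2 or more in each population. The TBRG1 probe difference was then 2.87 to 4.19 in EV cells and 3.35 to 3.85 in sponge cells.

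Of 550 values of member probes under the alternatives, 492 kept their sign. These values are not independent alternatives. For T and IP differences, single dyes and single orientations give the same numbers, so each dye value was counted repeatedly. Such values are also parts of the reported means. Values of SESN1 A_24_P346339, whose T was not well above background, are included. The authors' table does not hold the NIAM probe, so it gave no TBRG1 difference. Counting a probe as detected only where at least 5 of 10 spots were well above background, a choice made after seeing the data, changed none of the 4 counts. It could not change them, because MDM2 meets the minimum of 4 channels through its IP channels alone. The other members with 10 spots had all of them well above background. This setting therefore does not bear on the dim T signal of MDM2. No paired analysis was possible because each group holds 1 RNA sample. What limits the dim probes is their T signal over background, and the spread between cultures was not measured.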
